A study of Mus musculus with 9 samples.

Results

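The genes described here encode 8 transcription factors of the myeloid lineages, namely Spi1, Irf8, Klf4, Cebpa, Cebpb, Cebpd, Cebpe and Gfi1. They were chosen by name, with earlier results of these data known. Each was read from its probe sets with exactly 1 gene symbol, keeping the brightest over the 9 arrays where there was more than 1. All 8 were measured, of 22180 genes in all. Expression was measured on 9 mouse gene arrays, 1 per sample of long-term haematopoietic stem cells (LT-HSC) from C57BL/6 bone marrow, sorted for c-kit and Sca-1 and against lineage markers, CD34 and CD135. The groups of 3 biological replicates were wild-type controls (WT), MxCre Jak2VF/+ mice with 1 mutant Jak2 allele (Jak2VF), and MxCre Jak2VF/+ EZH2-/- mice with the same Jak2 allele and without Ezh2 (Jak2VF_Ezh2KO). Every mouse, controls included, was injected from 4 weeks of age with pI-pC (5 doses, 300 µg each), and marrow was taken 12 weeks later. pI-pC is a double-stranded RNA that induces interferon and so switches on MxCre, a Cre recombinase under the interferon-responsive Mx1 promoter, which acts in many cell types besides stem cells. The labels do not say whether the controls carried MxCre.

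Myeloid transcription factors act as a network in which their relative amounts steer a progenitor. PU.1, the ETS factor encoded by Spi1, binds with Irf8 at shared DNA elements and favours monocytes, dendritic cells and B cells, and Klf4 acts downstream of them in monocytes. The C/EBP proteins are basic leucine zipper factors: C/EBPα starts the granulocyte and monocyte programme, C/EBPε completes neutrophil granules, and C/EBPβ and C/EBPδ respond to cytokines and inflammation. Gfi1 is a zinc-finger repressor that opposes PU.1, favours neutrophils and holds stem cells in quiescence. Several of these genes are known to be transcribed at low level already in stem cells.

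The targeted gene, Ezh2, read 8.48, 8.81 and 8.69 in WT, 8.87, 9.09 and 8.78 in Jak2VF, then 8.47, 8.08 and 8.42 in Jak2VF_Ezh2KO. The last group lay below the others but not near background, and where its probes lie relative to the deleted part is not known here, so the value does not check the deletion. Jak2VF_Ezh2KO differed from Jak2VF by -0.59 for Ezh2 (limma, adjusted p = 0.411). The median log2 value of an array ranged from 5.51 to 5.67. Of the sort gate, Kit read 9.43 to 10.18 and the genes of both excluded markers were also measured, Cd34 at 9.91 to 10.68 and Flt3, which encodes CD135, at 6.91 to 8.03. The stem cell genes Procr and Hlf read 7.01 to 8.19 and 7.83 to 8.80. As a measure of background, 1390 receptor genes of smell (olfactory and vomeronasal), taken as silent here, had a 95th percentile between 5.90 and 6.75 per array. Their mean was highest in WT replicates 1 and 3 and Jak2VF replicate 1, at 4.22, 4.32 and 4.31, against 3.83 to 4.05 in the other 6 arrays. Replicates 1 and 2 of Jak2VF_Ezh2KO had Y-linked signal and replicate 3 and all other arrays did not. Probe sets differ in brightness, so the comparison with receptor genes is a description. In bulk samples, fewer cells of a type and less RNA per cell cannot be told apart.

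Spi1, Irf8, Klf4, Cebpa, Cebpb, Cebpd, Cebpe and Gfi1 gave 24 differences over the 3 comparisons of groups, and 0 passed a Benjamini-Hochberg adjusted p under 0.05 over all genes (limma). Irf8 had the largest differences among them, with values 1.75-fold higher in Jak2VF and 1.97-fold higher in Jak2VF_Ezh2KO than in WT, with all 6 mutant arrays above all 3 WT arrays. Cebpa was 1.46-fold higher in Jak2VF than in WT and Cebpb 1.55-fold higher in Jak2VF_Ezh2KO than in WT, both by narrow gaps between groups. For Cebpa no WT array exceeded the level of the receptor genes described above, nor did WT replicates 1 and 3 for Irf8 or Cebpb, so these folds are those of the measured signals. For Spi1, Klf4, Cebpd, Cebpe and Gfi1 the groups overlapped in every comparison. All 3 comparisons were made from the same 9 arrays, so any pair of them shares a group. The plot of the 9 arrays shows these values for every probe set.

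**Figure D1:**
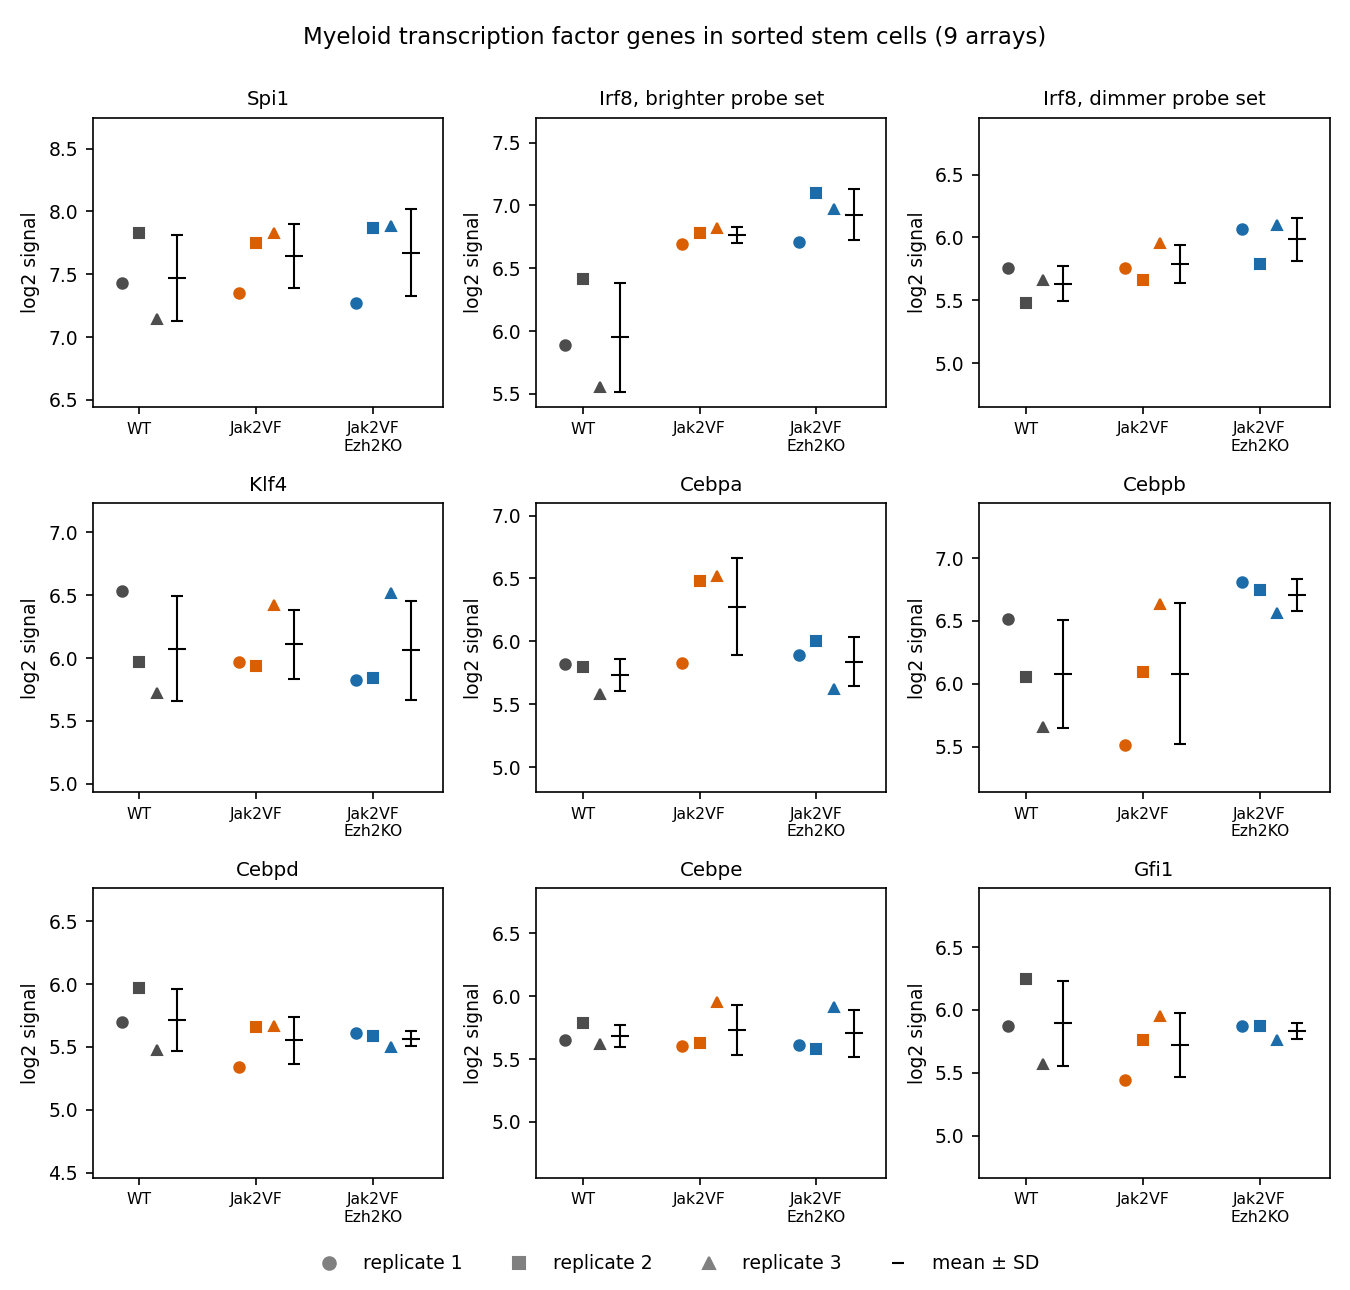
Log2 signal of each myeloid transcription factor gene in every array, by group (colour) and replicate (symbol), with the mean ± SD of 3 arrays beside each group; each panel spans the same range of log2 units around its own mean. Irf8 is shown with both probe sets, and in the brighter one the mutant arrays read 6.69 to 7.10 and the WT arrays 5.55 to 6.41.

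Between Jak2VF and WT, 0 of the 8 genes passed (limma), as did 0% of all genes, and at an unadjusted p under 0.05 there were 2, Irf8 and Cebpa, both on the higher side, where the share over all genes was 4.66% (2.85% higher and 1.81% lower). The groups did not overlap for these same genes, both higher in Jak2VF, then 6.11% of all genes in either direction (3.54% higher and 2.57% lower). Between Jak2VF_Ezh2KO and Jak2VF, 0 of 8 passed (0.0451% of all genes), 0 had an unadjusted p under 0.05 (6.89% of all genes, 2.91% higher and 3.99% lower), and the groups overlapped for all 8 (11.1% of all genes did not overlap, 4.18% higher and 6.94% lower). Between Jak2VF_Ezh2KO and WT, 0 of 8 passed (0.0225% of all genes), Irf8 alone had an unadjusted p under 0.05 (8.6% of all genes, 4.54% higher and 4.06% lower), and Irf8 and Cebpb did not overlap (12.9% of all genes, 6.28% higher and 6.62% lower). Positive differences were seen for 6, 5 and 5 of the 8 genes in the 3 comparisons, next to 55.8%, 41.8% and 46.5% of all genes. The median difference over the 8 genes was 0.04, 0.02 and 0.06 in these 3 comparisons, next to 0.03, -0.04 and -0.02 over all genes. The 8 genes did not stand together on one side in any comparison.

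**Figure D2:**
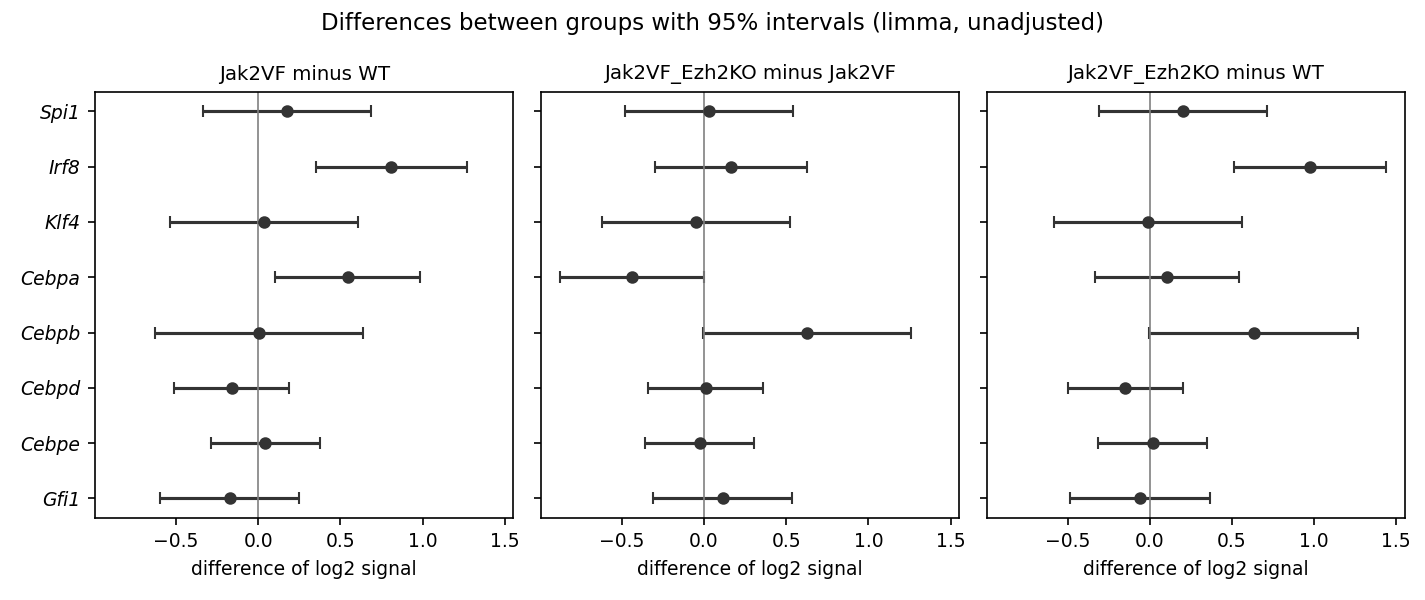
Difference of mean log2 signal between groups for each gene, with the 95% interval of the moderated limma fit (points and bars, 3 arrays per group, not adjusted for the number of genes). The interval lies above 0 for Irf8 in both comparisons with WT (0.35 to 1.27 and 0.52 to 1.44) and for Cebpa in Jak2VF minus WT (0.10 to 0.98); the other intervals include 0.

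Irf8 is the interferon regulatory factor of monocytes and dendritic cells, and it is itself known to be induced by interferon through STAT factors, the proteins that Jak kinases activate. The bases before its start are shown because it had the largest differences of the 8 genes and because its known STAT sites can be looked for there. Those of Cebpa and Cebpb, the other genes with a pair of groups that did not overlap, are shown for comparison. The sequences are from RefSeq (GRCm38.p6), which held promoters for 5 of the 8 genes, all on the plus strand for the 3 shown: chr8:120736108-120736357 for Irf8, chr7:35119043-35119292 for Cebpa and chr2:167688665-167688914 for Cebpb, each the 250 bases before an annotated start. Capitals mark matches to the letters searched, read 5′ to 3′ on the gene's strand.
Irf8: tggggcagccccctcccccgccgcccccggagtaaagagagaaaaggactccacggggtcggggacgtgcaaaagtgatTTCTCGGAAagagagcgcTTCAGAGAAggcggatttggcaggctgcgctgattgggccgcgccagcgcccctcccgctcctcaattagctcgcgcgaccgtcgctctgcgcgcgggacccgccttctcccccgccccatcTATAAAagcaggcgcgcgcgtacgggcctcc
Cebpa: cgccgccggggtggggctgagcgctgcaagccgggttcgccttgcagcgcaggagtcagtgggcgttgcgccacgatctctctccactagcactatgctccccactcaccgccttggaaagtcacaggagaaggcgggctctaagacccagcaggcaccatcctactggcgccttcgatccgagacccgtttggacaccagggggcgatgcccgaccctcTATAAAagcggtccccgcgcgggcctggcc
Cebpb: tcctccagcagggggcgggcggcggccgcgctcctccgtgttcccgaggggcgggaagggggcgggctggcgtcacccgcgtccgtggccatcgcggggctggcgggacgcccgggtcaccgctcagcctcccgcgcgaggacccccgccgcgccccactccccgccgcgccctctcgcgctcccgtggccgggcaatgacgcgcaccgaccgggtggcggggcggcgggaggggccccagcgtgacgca
Both strands were searched for TTCNNNGAA, the spaced palindrome that STAT dimers bind, the core of the interferon-stimulated response element, GAGGAA, a core of PU.1 sites, TTGCNNAA of C/EBP sites, and TATAAA. No 2 matches overlapped in the sequences shown. The Irf8 window held TTCNNNGAA at 2 places, as TTCTCGGAA from 171 to 163 bases before the start and as TTCAGAGAA from 153 to 145 bases before it. Of 32851 windows of this length, 7.02% held these letters at least once and 0.317% at 2 or more places. TATAAA stood 31 to 26 bases before the start of Irf8 and 30 to 25 bases before that of Cebpa, and 12.4% of all windows held it. In the Cebpb window 0 matches to the 5 motifs were found. A window before another annotated start of Irf8 also held 0. The response element core, GAGGAA and TTGCNNAA were in 2.98%, 23.3% and 9.56% of all windows and in none of the 3 shown. These matches describe letters and do not show that a factor binds.

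The brighter Irf8 probe set read 5.89, 6.41 and 5.55 in WT replicates 1 to 3, 6.69, 6.78 and 6.82 in Jak2VF, then 6.71, 7.10 and 6.97 in Jak2VF_Ezh2KO (log2 signal). The lowest mutant array, Jak2VF replicate 1, lay above the highest WT array, replicate 2. The means were 5.95 ± 0.43 in WT, 6.76 ± 0.07 in Jak2VF and 6.93 ± 0.20 in Jak2VF_Ezh2KO (SD, n = 3), so the WT arrays spread more than the mutant ones. Jak2VF differed from WT by 0.81 with a standard error of 0.21 (limma, unadjusted p = 0.002898, adjusted p = 0.924). Jak2VF_Ezh2KO differed from WT by 0.98 with a standard error of 0.21 (unadjusted p = 0.0008391, adjusted p = 0.253 by limma). Jak2VF_Ezh2KO and Jak2VF overlapped and differed by 0.16, with a 95% interval from -0.30 to 0.63, so a further difference of up to 0.63 between the mutant genotypes lay within the interval. The size of the difference from WT moved with single WT arrays: without WT replicate 2 it was 1.04 in Jak2VF and 1.21 in Jak2VF_Ezh2KO, and without WT replicate 3 it was 0.61 and 0.78.

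The dimmer Irf8 probe set differed less between groups. It read 5.76, 5.48 and 5.66 in WT, 5.75, 5.66 and 5.95 in Jak2VF, then 6.07, 5.78 and 6.10 in Jak2VF_Ezh2KO. Here WT and Jak2VF overlapped, with a difference of 0.16, whereas all 3 Jak2VF_Ezh2KO arrays lay above the WT arrays, with a difference of 0.35 (limma over all probe sets, adjusted p = 0.932 and 0.553). Both probe sets thus had positive differences in both mutant genotypes, of unequal size. In the brighter probe set 6 of 9 arrays exceeded the 95th percentile of the receptor genes, and in the dimmer one 2 of 9 did. The arrays of the brighter probe set at or under that level were WT replicates 1 and 3 and Jak2VF replicate 1, the arrays with the highest receptor-gene mean. Without these 3 arrays, a choice made after seeing the data, Irf8 differed by 0.39 between Jak2VF and WT and by 0.52 between Jak2VF_Ezh2KO and WT, with WT replicate 2 as the 1 remaining control.

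Marker lists of other cells gave the following values beside Irf8, as means over a list relative to WT. B cell genes lay between -0.14 and 0.12 in 8 arrays and at 1.22 in Jak2VF_Ezh2KO replicate 3, and without that array the Irf8 difference between Jak2VF_Ezh2KO and WT was 0.95. It was 1.02 without both arrays with Y-linked signal. The part of B cells and of sex in the Irf8 values was not tested. Means of the dendritic cell genes overlapped between all groups, at -0.17 to 0.24 in WT, -0.05 to 0.13 in Jak2VF and 0.04 to 0.17 in Jak2VF_Ezh2KO. Of the 7 measured, 2 were positive in Jak2VF minus WT, with a median of -0.03 (55.8% of all genes were positive). In Jak2VF_Ezh2KO minus WT 3 of these 7 were, with a median of -0.09 (46.5% of all genes). Between these groups 2 of the 7 did not overlap on the higher side and 1 on the lower (6.28% and 6.62% of all genes). An unadjusted p under 0.05 was seen for 2 of the 7, both higher (4.54% of all genes). The one among the 7 with the smallest p, Bst2, which interferon also induces, read 8.41, 8.65 and 8.07 in WT, 8.61, 9.26 and 8.72 in Jak2VF, then 9.23, 9.12 and 9.73 in Jak2VF_Ezh2KO. Mast cell and basophil genes were, like Irf8, higher in both mutant groups, at -0.10 to 0.11 in WT, 0.47 to 1.02 in Jak2VF and 0.87 to 1.39 in Jak2VF_Ezh2KO. Within groups the order of arrays differed. In Jak2VF_Ezh2KO, replicate 2 had the highest Irf8 value, 7.10, and the lowest mean of mast cell and basophil genes, 0.87. At most 3 of 8 of these genes exceeded the receptor-gene level in a WT array and at most 5 of 8 in a mutant array. Their part in the Irf8 values was not tested, and the order of 3 arrays in a group cannot decide it. Between WT and Jak2VF_Ezh2KO, 7 of the 8 mast cell and basophil genes did not overlap, all higher (6.28% of all genes), and 1 of them, the protease gene Cma1, passed (limma, adjusted p = 0.0459; 0.0225% of all genes passed). Between WT and Jak2VF, 7 of 8 were positive (55.8% of all genes), with a median of 0.63. Of them, 5 had an unadjusted p under 0.05 and 5 did not overlap, all higher, where 2.85% and 3.54% of all genes did so. This list was chosen with earlier results of these data known, so its counts beside these shares are a description.

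**Figure D3:**
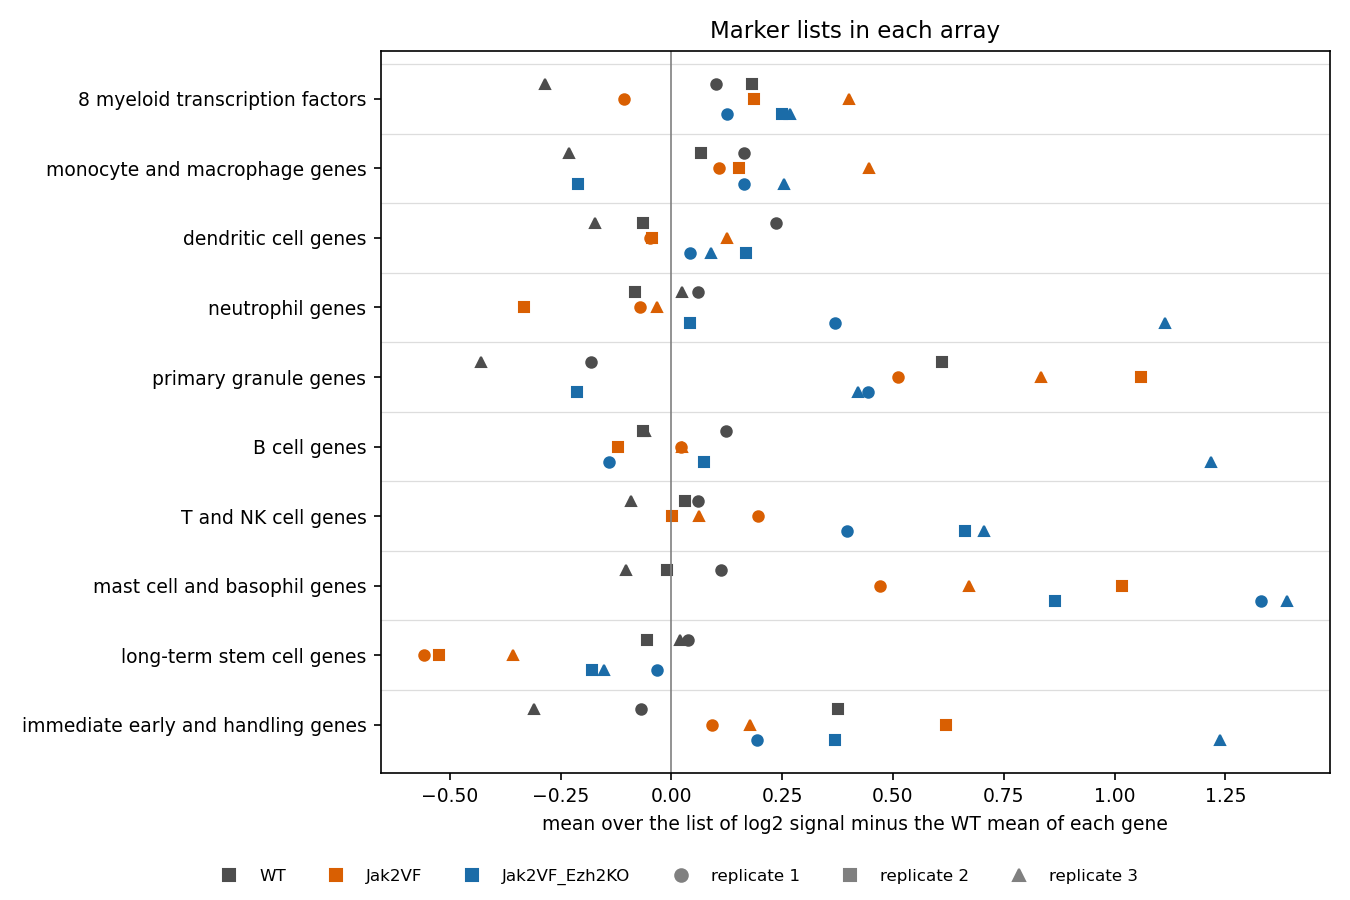
Mean over each list of the log2 signal minus the WT mean of each gene, for every array (colour for group, symbol for replicate). The 8 transcription factors span -0.28 to 0.18 in WT and -0.11 to 0.40 in the mutant arrays, B cell genes stand out in Jak2VF_Ezh2KO replicate 3 at 1.22, and mast cell and basophil genes separate WT from both mutant groups.

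Spi1 was the one member above the receptor-gene level in all 9 arrays. It read 7.43, 7.83 and 7.15 in WT, 7.35, 7.75 and 7.83 in Jak2VF, then 7.27, 7.87 and 7.88 in Jak2VF_Ezh2KO. The lowest array of a group lay between 7.15 and 7.35 and the highest between 7.83 and 7.88, so the groups covered nearly the same range. Spi1 differed by 0.17 between Jak2VF and WT, with a 95% interval from -0.34 to 0.68, and by 0.20 between Jak2VF_Ezh2KO and WT (limma, adjusted p = 0.949 and 0.826). Single arrays set the size of these values: they were 0.35 and 0.38 without WT replicate 2 and 0.013 and 0.043 without WT replicate 3. Leaving out Jak2VF replicate 1 or 3 gave 0.32 or 0.081 for the first, and the second was 0.41, 0.11 and 0.10 without Jak2VF_Ezh2KO replicates 1, 2 and 3. Klf4 read 6.53, 5.97 and 5.72 in WT, 5.97, 5.94 and 6.42 in Jak2VF, then 5.83, 5.84 and 6.52 in Jak2VF_Ezh2KO. A single array stood apart on the high side in each group, at 6.42 to 6.53, and the group means lay between 6.06 and 6.11. Klf4 exceeded the receptor-gene level in 4 of 9 arrays. Klf4 is also an early response gene of handled cells. In the highest Klf4 array of WT, Jak2VF and Jak2VF_Ezh2KO, replicates 1, 3 and 3, immediate early genes were at -0.07, 0.18 and 1.24 relative to WT, and the highest immediate early mean of each group was 0.38, 0.62 and 1.24. Their part in the Klf4 values was not tested.

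Among the C/EBP genes, Cebpa read 5.82, 5.80 and 5.58 in WT, 5.83, 6.48 and 6.52 in Jak2VF, then 5.89, 6.00 and 5.62 in Jak2VF_Ezh2KO. Jak2VF replicates 2 and 3 stood apart from the other 7 arrays, while replicate 1 read 5.83 next to 5.82 in WT replicate 1. The difference between Jak2VF and WT was 0.54 with a standard error of 0.20 (limma, unadjusted p = 0.0205, adjusted p = 0.924). Between Jak2VF_Ezh2KO and Jak2VF it was -0.44 with the same standard error (adjusted p = 0.726), with a 95% interval from -0.88 to 0.00. Jak2VF_Ezh2KO and WT overlapped and differed by 0.11. Without Jak2VF replicate 1 the first difference was 0.77 and the second -0.66, and without replicate 3 they were 0.42 and -0.32. Only 2 arrays exceeded the receptor-gene level, Jak2VF replicates 2 and 3. Other lists differed in Jak2VF. Megakaryocyte genes (8 measured) lay at 0.21, 0.81 and 0.66 relative to WT in Jak2VF replicates 1 to 3, above -0.09 to 0.17 in WT and -0.52 to -0.11 in Jak2VF_Ezh2KO. Long-term stem cell genes (10 measured) lay at -0.56 to -0.36 in Jak2VF, below -0.06 to 0.04 in WT and -0.18 to -0.03 in Jak2VF_Ezh2KO. Their part in the Cebpa values was not tested.

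Cebpb followed another order. It read 6.51, 6.06 and 5.65 in WT, 5.51, 6.10 and 6.63 in Jak2VF, then 6.81, 6.75 and 6.56 in Jak2VF_Ezh2KO. The Jak2VF arrays spread around those of WT on both sides, with SDs of 0.56 and 0.43, whereas the Jak2VF_Ezh2KO arrays lay close together (SD 0.13) at 6.56 to 6.81. Jak2VF_Ezh2KO differed from WT by 0.63 with a standard error of 0.28 (limma, unadjusted p = 0.0505, adjusted p = 0.581), and its lowest array, at 6.56, lay just above the highest WT array, at 6.51. Against Jak2VF the difference was 0.63 (adjusted p = 0.726) and 1 Jak2VF array lay within the range of the Jak2VF_Ezh2KO arrays. Without Jak2VF replicate 1 that difference was 0.34 and without Jak2VF replicate 3 it was 0.90. Jak2VF and WT differed by 0.01, with a 95% interval from -0.63 to 0.64. Cebpb exceeded the receptor-gene level in 6 of 9 arrays. The arrays under it were WT replicates 1 and 3 and Jak2VF replicate 1, so none was of Jak2VF_Ezh2KO. T and NK cell genes (9 measured) also lay higher in Jak2VF_Ezh2KO, at 0.40 to 0.70 relative to WT against -0.09 to 0.20 in the other 6 arrays, with 4 to 6 of 9 above the receptor-gene level against 1 to 3. Erythroid genes (6 measured) lay at 0.46 to 0.65 there, against -0.64 to 0.46 elsewhere. Their part in the Cebpb values was not tested.

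Cebpd and Cebpe varied little. Cebpd read 5.70, 5.97 and 5.47 in WT, 5.34, 5.66 and 5.66 in Jak2VF, then 5.61, 5.59 and 5.50 in Jak2VF_Ezh2KO, with differences from WT of -0.16 and -0.15. Cebpe spanned 5.58 to 5.96 over all 9 arrays and exceeded the receptor-gene level in 0 of them, so a level above background was not shown for this late neutrophil factor. Gfi1 read 5.87, 6.24 and 5.57 in WT, 5.45, 5.76 and 5.95 in Jak2VF, then 5.87, 5.87 and 5.76 in Jak2VF_Ezh2KO. Gfi1 and Cebpd each exceeded the receptor-gene level in 1 array, WT replicate 2. Their 95% intervals in the comparison of Jak2VF with WT ran from -0.60 to 0.25 and from -0.51 to 0.19, and Gfi1 differed from WT by -0.06 in Jak2VF_Ezh2KO (limma, adjusted p = 0.948).

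Relatives and partners of these factors were examined as lists, in which 0 genes passed over all genes in any comparison (limma). Of 10 ETS genes, 1 had an unadjusted p under 0.05 on the higher side and 4 on the lower side in Jak2VF_Ezh2KO against Jak2VF (2.91% and 3.99% of all genes), with a median difference of -0.22 beside -0.04 over all genes. The lower ones included Fli1 at -0.59 and Elf1 at -0.51, and the higher one was Ets1 at 0.30. Of 6 measured interferon regulatory factor genes besides Irf8, all 6 had a positive difference in Jak2VF against WT, where 55.8% of all genes did, but 0 had an unadjusted p under 0.05 and the median was 0.16. In Jak2VF_Ezh2KO, Irf2 differed from Jak2VF by -0.47 and Irf7 from WT by 0.34. Of 12 Krüppel-like factor genes, Klf12 differed by -0.90 between Jak2VF and WT and by 1.21 between Jak2VF_Ezh2KO and Jak2VF, and Klf1, the erythroid member, by 0.90 in the latter. Among C/EBP relatives and dimer partners, Cebpg and Atf4 had differences from WT of 0.21 and 0.15 in Jak2VF, and Batf3 differed by 0.41 between Jak2VF_Ezh2KO and WT.

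Of 10 partners and upstream regulators, Cbfb, the binding partner of Runx1, read 8.22, 8.48 and 8.22 in WT, 8.50, 8.63 and 8.43 in Jak2VF, then 8.13, 7.64 and 7.76 in Jak2VF_Ezh2KO, the last group below both others (differences of -0.46 from WT and -0.68 from Jak2VF, limma, adjusted p = 0.492 and 0.317). Runx1 differed by 0.49 between Jak2VF_Ezh2KO and WT and Gata2 by 0.47 between Jak2VF and WT. Among 8 measured regulators of monocytes and dendritic cells, Id2, an inhibitor of E proteins that Gfi1 is known to repress, read 6.72, 6.23 and 6.75 in WT, 5.54, 6.15 and 6.62 in Jak2VF, then 7.86, 7.80 and 7.57 in Jak2VF_Ezh2KO. The Jak2VF_Ezh2KO arrays lay above all others, with a difference from Jak2VF of 1.64 (limma, adjusted p = 0.0934). Of the 6 measured genes that Gfi1 is known to repress, 2 had an unadjusted p under 0.05 in Jak2VF_Ezh2KO against Jak2VF. Id2 was on the higher side (2.91% of all genes) and Meis1 on the lower side (3.99%), at -0.38, so they shared no direction. In the group of Gfi1 relatives and corepressors, Hdac2 and Ehmt2 differed by -0.35 and -0.38 between Jak2VF_Ezh2KO and Jak2VF.

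Genes that these factors are known to activate were examined in the same way. A list of 5 genes held the primary granule genes Mpo, Elane, Prtn3 and Ctsg, made in early granulocyte progenitors under PU.1 and C/EBPα. Its other gene was Ms4a3, a granulocyte and monocyte progenitor gene. All 5 had positive differences in Jak2VF against WT, where 55.8% of all genes did. Their median was 0.62 beside 0.03 over all genes. Of them, 2 had an unadjusted p under 0.05, both higher (2.85% of all genes), and 0 passed (limma, smallest adjusted p = 0.924). In Jak2VF_Ezh2KO against Jak2VF 4 of 5 were negative, with a median of -0.58 beside -0.04 over all genes. The other 1 was positive, as were 41.8% of all genes. The protease gene Ctsg read 6.81, 8.11 and 6.13 in WT, 7.97, 8.76 and 8.67 in Jak2VF, then 7.69, 6.49 and 7.27 in Jak2VF_Ezh2KO. WT replicate 2 lay within the Jak2VF range, and the Jak2VF_Ezh2KO arrays lay below that range, with differences of 1.45 from WT in Jak2VF and -1.32 from Jak2VF in Jak2VF_Ezh2KO. Ms4a3 differed by 0.87 and -0.89 in these comparisons. Prtn3, another protease gene, differed by 0.48 and 0.15, without the lower value in Jak2VF_Ezh2KO. WT replicate 2 read highest of the WT arrays for Mpo, Ctsg, Ms4a3 and Prtn3, but not for Cebpa. As means over the 5 genes relative to WT, WT replicates 1 to 3 lay at -0.18, 0.61 and -0.43. Jak2VF replicates 1 to 3 lay at 0.51, 1.06 and 0.84. WT replicates 1 and 3 were among the arrays with the highest receptor-gene mean. Of the 5 genes, 2 to 5 exceeded the receptor-gene level in WT arrays, 4 to 5 in Jak2VF and 3 to 5 in Jak2VF_Ezh2KO. The part of background in these differences was not tested.

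**Figure D4:**
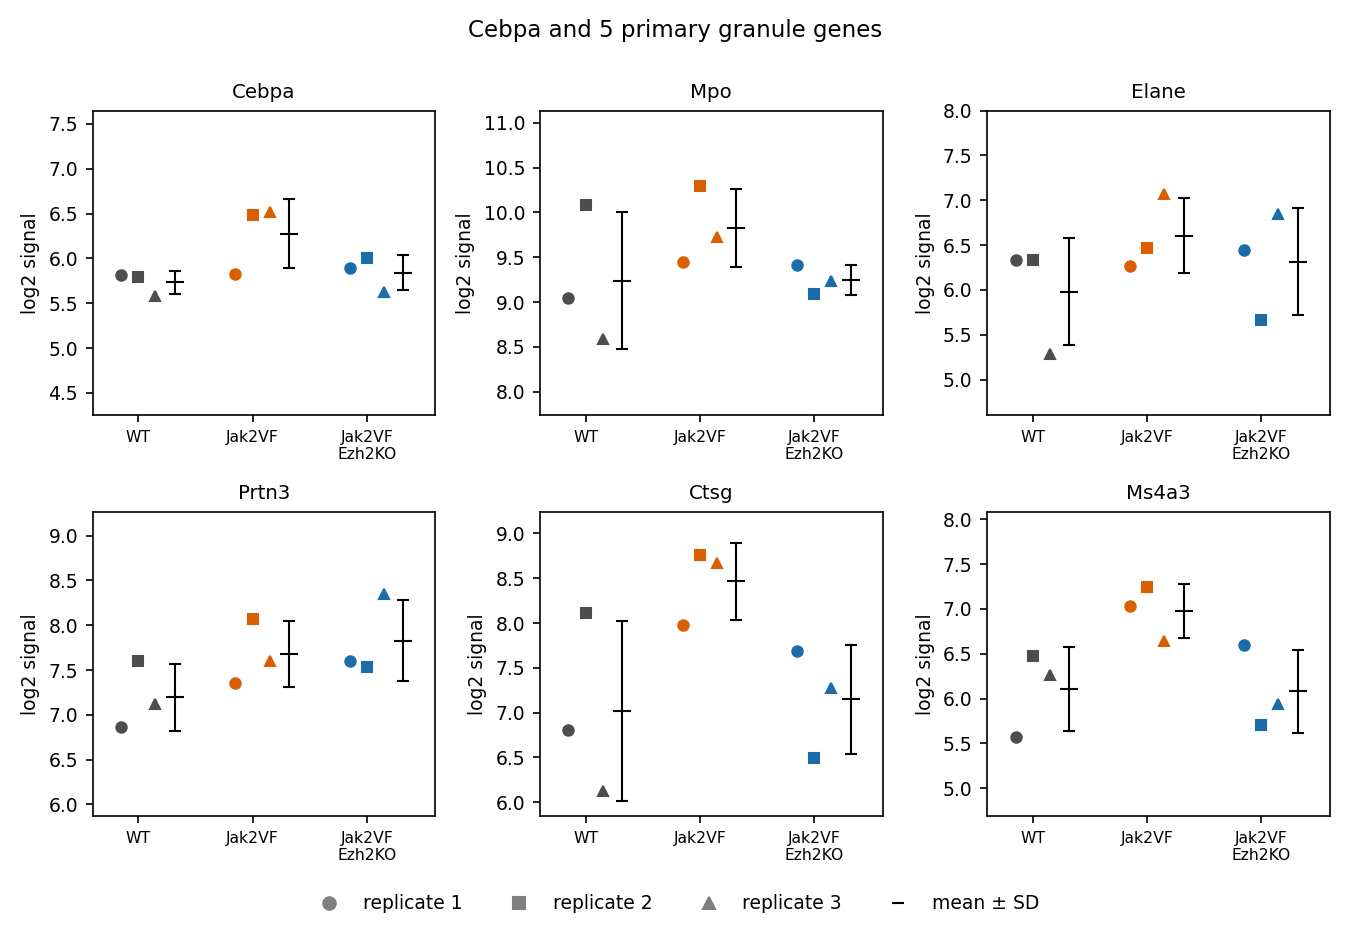
Log2 signal of Cebpa, the primary granule genes Mpo, Elane, Prtn3 and Ctsg, and the progenitor gene Ms4a3 in every array. Colour gives the group and symbol the replicate, with the mean ± SD of 3 arrays. Panels span the same number of log2 units. Ctsg reads 7.97 to 8.76 in Jak2VF and 6.49 to 7.69 in Jak2VF_Ezh2KO, with WT from 6.13 to 8.11 across both.

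Among 8 myeloid receptor genes, Csf2rb, the shared signalling chain of the GM-CSF receptor, read 6.59, 6.72 and 6.64 in WT, 7.53, 6.89 and 7.07 in Jak2VF, then 6.63, 6.01 and 6.47 in Jak2VF_Ezh2KO. All Jak2VF arrays lay above those of both other groups, with differences of 0.51 from WT and of -0.79 for Jak2VF_Ezh2KO against Jak2VF (limma, adjusted p = 0.924 and 0.383). Csf1r, a PU.1 target that marks monocytes, spanned 5.44 to 6.00 and exceeded the receptor-gene level in 0 of 9 arrays, as did the macrophage marker Adgre1. Other markers of monocytes and macrophages did exceed it. Lyz2 read 8.77 to 9.73 and was above it in 9 of 9 arrays. Of the 11 measured, 2 to 6 were above it in WT arrays and 3 to 6 in mutant arrays. Of 8 measured targets of Irf8 and PU.1, 7 had positive differences in Jak2VF against WT (median 0.21) and 7 had negative ones in Jak2VF_Ezh2KO against Jak2VF (median -0.13). Positive differences were seen for 55.8% and 41.8% of all genes in these comparisons. Within that list 1 gene had an unadjusted p under 0.05 in Jak2VF_Ezh2KO against WT, on the higher side (4.54% of all genes). It was Cst3, the cystatin gene of dendritic cells, at 0.41, and its other probe set differed by 0.23 there. Cybb, an oxidase gene under both factors, spanned 4.70 to 5.13 and exceeded the receptor-gene level in 0 arrays. Of the 8 measured targets of Irf8 and PU.1, 2 to 4 exceeded it in WT and Jak2VF arrays and 3 to 4 in Jak2VF_Ezh2KO arrays. Of the 9 secondary granule genes under C/EBPε, at most 1 exceeded that level in any array. Neutrophil markers lay at 0.37, 0.04 and 1.11 relative to WT in Jak2VF_Ezh2KO, with S100a8 at 4.26 to 9.91 over all arrays. Means of the monocyte and macrophage markers overlapped between all groups (-0.23 to 0.16 in WT, 0.11 to 0.45 in Jak2VF and -0.21 to 0.25 in Jak2VF_Ezh2KO).

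The genes with the profile most like those of Irf8 and Cebpb, the members that spanned over 1 log2 unit, were found by the root mean square distance over the 9 arrays after centring each gene on its own mean. RIKEN clones and predicted genes were ranked but are not named; for Irf8 they took ranks 1 and 4. The nearest named genes of Irf8 were Oas2, an interferon-induced antiviral enzyme gene, at 0.16 (rank 2), Gm2a, which encodes a lysosomal activator protein of ganglioside breakdown, at 0.18 (rank 3) and Tmem192 at 0.19 (rank 5), where the median over all genes was 0.52. Oas2 read 5.99, 6.55 and 5.41 in WT, 6.44, 6.59 and 6.88 in Jak2VF, then 6.87, 7.06 and 7.19 in Jak2VF_Ezh2KO. As for Irf8, WT replicate 2 was the highest WT array. For Cebpb the nearest of all genes were Chst12 at 0.19, Socs1, a feedback inhibitor of Jak kinases, at 0.20 and Rpusd1 at 0.20, against a median of 0.49. Socs1 read 7.11, 6.87 and 6.50 in WT, 6.45, 6.94 and 7.08 in Jak2VF, then 7.15, 7.28 and 7.09 in Jak2VF_Ezh2KO. These genes were chosen for their likeness, and the arrays share depth and background, so the distances are descriptions.

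The differences of Irf8, Cebpa and Cebpb from the groups they stood apart from kept their direction under all alternatives run for them. This was fixed in advance for most settings. Groups that do not overlap keep their order when arrays are left out, and settings of variance, block or filter leave the difference as it is. Only rescaling could have turned the direction, so the alternatives describe the size of these differences. Irf8 ranged from 0.39 to 1.04 in Jak2VF against WT and from 0.52 to 1.21 in Jak2VF_Ezh2KO against WT, and its smallest adjusted p over these settings was 0.0627 (limma).

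**Figure D5:**
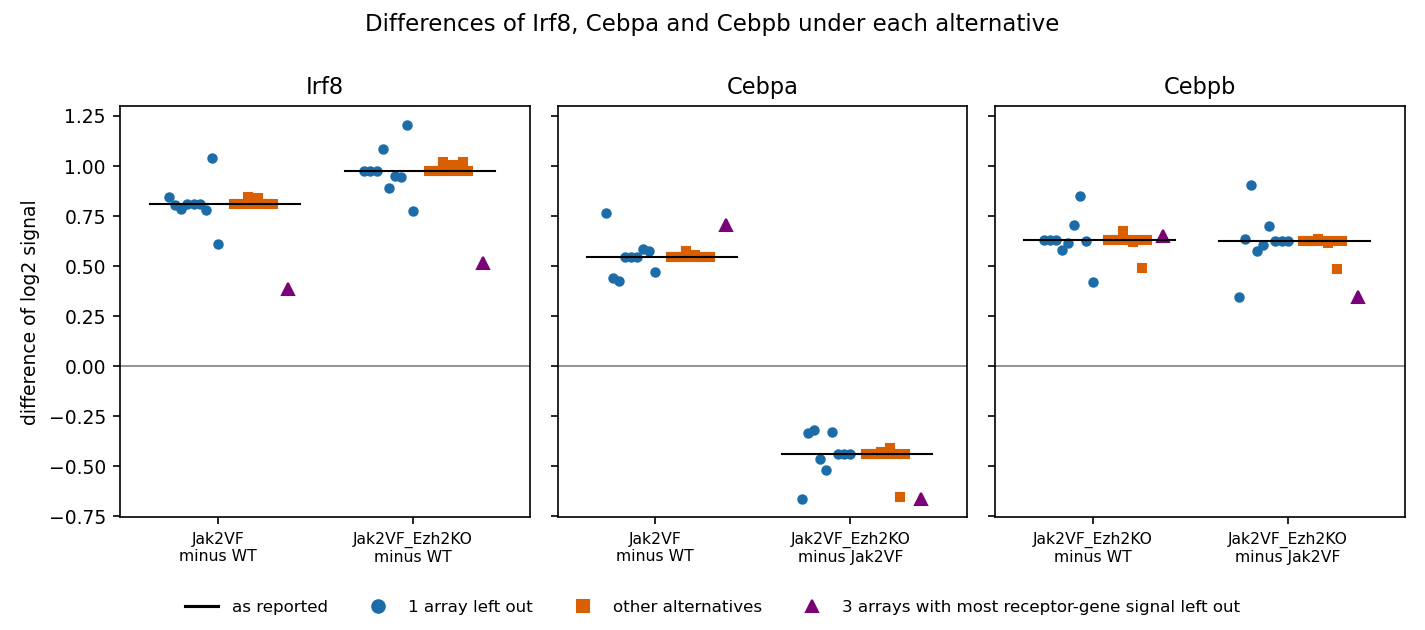
Difference of mean log2 signal for Irf8, Cebpa and Cebpb in 2 comparisons each, as reported (line), with 1 array left out (circles), under other alternatives (squares) and without the 3 arrays with the most receptor-gene signal (triangles). Irf8 has its smallest differences, 0.39 and 0.52, in that last setting, and the signs are the same in all settings plotted. Where the groups did not overlap, leaving out arrays could not change the sign.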

How the data were processed

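The submitters' processing notes name Partek 6.6. The authors deposited 1 table with 41345 probe sets, whose range shows a log2 scale. How background, normalization and summary were handled was not given in the sources used here. Per the labels, RNA was amplified as whole-transcriptome cDNA before labelling; whether mice were pooled was not stated there. The values were used as deposited. Of the probe sets, 23521 had 1 gene symbol in the platform annotation, 1814 had several and 16010 were unnamed here; the last 2 kinds named no gene.

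All 9 arrays entered 1 fit (limma 3.58.1, R 4.3.3, lmFit and eBayes, 6 residual degrees of freedom). p-values were adjusted by Benjamini-Hochberg over 22180 genes, with a threshold of 0.05. The fit was also run on simulated data, and that outcome is not reported here. The 3 arrays per group limit the precision. The members and lists were chosen with earlier results of these data known. Their counts beside the shares over all genes are therefore descriptions. List genes were named when they passed or were among the 3 with the smallest p in a comparison. Elane, Mpo, Cebpg, Atf4, Csf1r, Adgre1, Lyz2, Cybb and S100a8 were named for their role or after their values were seen. The sample titles do not say whether replicate numbers pair the samples, and the main fit did not pair them. Alternatives covered variance model, scaling, filters, samples, probe sets, a replicate block and left-out arrays.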

Additional observations from a re-analysis of the deposited data

How the results depend on the processing

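Of the 24 member differences, 9 kept their direction under every alternative, and over 450 alternative values 0 had an adjusted p under 0.05 (limma, or ordinary least squares). Those between groups that did not overlap could not turn when arrays were left out. The 3 arrays per group and signals near background limit these genes. Scaling moved the median of all genes by at most 0.04. Leaving out 1 array at a time moved Jak2VF minus WT over -0.27 to 0.29 for Cebpb, -0.070 to 0.11 for Cebpe, -0.34 to 0.0007 for Gfi1 and -0.14 to 0.27 for Klf4. It moved Jak2VF_Ezh2KO minus Jak2VF over -0.12 to 0.23 for Spi1, -0.10 to 0.066 for Cebpd, -0.13 to 0.087 for Cebpe, -0.023 to 0.23 for Gfi1 and -0.27 to 0.11 for Klf4. It moved Jak2VF_Ezh2KO minus WT over -0.089 to 0.078 for Cebpe, -0.22 to 0.11 for Gfi1 and -0.24 to 0.22 for Klf4. Without both arrays with Y-linked signal, which leaves 1 Jak2VF_Ezh2KO array assumed to vary like the others, Cebpd, Cebpe and Klf4 differed from Jak2VF by -0.058, 0.19 and 0.41, and Cebpa and Klf4 from WT by -0.11 and 0.44. With median centring, Klf4 differed from WT by 0.032 in Jak2VF_Ezh2KO. Without the 3 arrays with the highest receptor-gene signal, chosen after seeing the data, Spi1 differed by -0.039 in Jak2VF minus WT, -0.12 in Jak2VF_Ezh2KO minus Jak2VF and -0.15 in Jak2VF_Ezh2KO minus WT. In that setting Cebpd and Gfi1 differed by -0.10 and -0.023 between the mutant groups, and Cebpe and Klf4 by -0.083 and 0.10 between Jak2VF_Ezh2KO and WT. The cause of these turns was not tested.

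Over all genes, 0 passed in Jak2VF minus WT in all settings run. In Jak2VF_Ezh2KO minus Jak2VF, 10 passed (7 higher), and 4 with median centring, 19 without the dimmer part of the genes and 23 at a threshold of 0.10. In Jak2VF_Ezh2KO minus WT, 5 passed (4 higher, 1 lower), and 10 with an intensity trend and robust variance, 3 with median centring (3 higher, 0 lower), 3 with every probe set tested and 13 at a threshold of 0.10. In both comparisons with Jak2VF_Ezh2KO, 0 passed with ordinary least squares, with the groups of a comparison alone, without the 2 arrays with Y-linked signal and without the 3 receptor-signal arrays. Leaving out 1 array gave 0 to 17 and 0 to 14, both highest without Jak2VF_Ezh2KO replicate 3. In the first comparison 0 passed without any 1 Jak2VF array or Jak2VF_Ezh2KO replicate 2, 1 without Jak2VF_Ezh2KO replicate 1 and 4 or 5 without a WT array. In the second, 14 passed without Jak2VF_Ezh2KO replicate 3, 6 without Jak2VF replicate 1 and at most 2 without any other array. With the replicate block, 0 passed in all 3 comparisons. Whether replicate numbers pair the samples is not known from the sample titles. Deviations of same-numbered arrays correlated at -0.231 to 0.484, those of other pairs at -0.502 to 0.333, and an array correlated best with its own number in 3 of 18 cases. Deviations within a group cancel each other, which forces mixed signs, so these correlations cannot settle it.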

Other observations

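Exactly repeated values occurred between arrays. Gfi1 had 7 different values over 9 arrays, with 5.87 in WT replicate 1 and in Jak2VF_Ezh2KO replicates 1 and 2, and Klf4 had 8, with 5.97 in WT replicate 2 and Jak2VF replicate 1. The values are identical to all 5 decimals deposited. Over all probe sets 36.9% had a value repeated between arrays, 15272 of 41345. What gives equal values was not tested; it makes the spread within a group a less exact measure for these genes. The other 6 transcription factor genes had 9 different values each.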
